A study of Mus musculus with 24 samples.

Results

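The genes described here are 38 genes of glucose uptake, glycolysis, lactate handling and the hypoxia response, chosen by name and followed through 9 groups of sorted cells from mouse fat. Of the 38, 33 had a probe row with exactly 1 gene symbol and all 33 of these passed the filter on dim genes, out of 22180 genes with such a row and 15496 tested in the whole series. Aldoa, Ankrd37 and Bnip3l lay only on rows that carried several symbols, and Eno1 and Gpi1 on no named row, so these 5 have no values below. Gonadal fat of male mice of the strain C57Bl/6 was the source, and the labels name no genetic change. Lean mice ate a normal diet (ND), obese mice a diet with 60% fat (HFD), and a weight loss group (WL) was taken off the HFD for 8 weeks after 12 weeks on it. Adipose tissue macrophages without CD11c (CD11c- ATM) came from ND mice (2 arrays), HFD mice (3 arrays) and WL mice (2 arrays), and macrophages with CD11c (CD11c+ ATM) from HFD and WL mice (3 arrays each). Adipose tissue dendritic cells (ATDC) came from ND mice (2 arrays) and HFD mice (3 arrays), and preadipocytes (PA) from ND and HFD mice (3 arrays each). Each array of ND macrophages and ND ATDC held cells pooled from 4 mice and each PA or HFD array cells pooled from 3 to 4 mice, and the labels do not say how WL mice were pooled. The CD11c+ ATM of ND mice were too few to be sorted, so the CD11c+ cells have no lean group of their own.

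Cells take up glucose through facilitative transporters such as Glut1, encoded by Slc2a1, trap it by hexokinase and split it in glycolysis to pyruvate, which enters the mitochondria or is turned into lactate and exported. When oxygen is low, prolyl hydroxylases (Egln1, Egln3) no longer mark the subunits HIF-1alpha (Hif1a) and HIF-2alpha (Epas1) for destruction, and these factors raise the transcription of glycolytic genes and of genes such as Vegfa, Adm and P4ha1. HIF is controlled mostly at the level of its protein, which arrays do not measure. In obese fat, macrophages and growing fat cells have been studied for both low oxygen and a turn to glycolysis.

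HIF binds a short core, ACGTG or GCGTG, read on the other strand as CACGT or CACGC. The 4 cores were searched in the 300 bases around each RefSeq start site (250 before to 50 after it), with the palindrome CACGTG counted on both strands. Of the 38 genes, 34 were matched by symbol to 50 such windows (RefSeq, build GRCm38.p6), and 80.0% of the windows held a core, against 43.8% of all 32851 windows. For whole genes the shares were 91.2% of 34 against 46.7% of 27025. Each core holds the bases CG, and the windows were not matched for base composition. No test was run on these shares. The bases before the start site are printed for Slc2a1, P4ha2 and Adm, members called in comparisons between sorts, and for 1 of the 2 Vegfa windows, which held no core. Capitals mark the cores, and each stretch reads 5′ to 3′ on its gene's strand.
Slc2a1 (chr4:119108495-119108744, plus strand): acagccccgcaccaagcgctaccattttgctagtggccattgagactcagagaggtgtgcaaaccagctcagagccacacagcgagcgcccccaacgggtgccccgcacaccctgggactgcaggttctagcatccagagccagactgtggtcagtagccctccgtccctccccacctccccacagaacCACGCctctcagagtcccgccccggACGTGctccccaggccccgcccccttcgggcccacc
P4ha2 (chr11:54100674-54100923, plus strand): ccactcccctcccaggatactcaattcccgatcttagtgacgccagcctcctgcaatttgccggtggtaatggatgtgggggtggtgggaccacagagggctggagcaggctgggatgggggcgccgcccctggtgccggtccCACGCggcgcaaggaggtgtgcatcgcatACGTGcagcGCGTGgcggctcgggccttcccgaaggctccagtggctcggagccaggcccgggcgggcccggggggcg
Adm (chr7:110627407-110627656, plus strand): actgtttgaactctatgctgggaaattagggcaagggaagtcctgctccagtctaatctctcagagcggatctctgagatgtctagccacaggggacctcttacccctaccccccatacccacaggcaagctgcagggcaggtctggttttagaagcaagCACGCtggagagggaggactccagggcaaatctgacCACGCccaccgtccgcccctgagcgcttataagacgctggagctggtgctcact
Vegfa (chr17:46032378-46032627, minus strand): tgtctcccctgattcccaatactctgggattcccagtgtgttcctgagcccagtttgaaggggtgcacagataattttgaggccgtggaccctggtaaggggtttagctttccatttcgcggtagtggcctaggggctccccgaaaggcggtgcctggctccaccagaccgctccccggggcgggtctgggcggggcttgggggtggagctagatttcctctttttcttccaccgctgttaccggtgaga
Counted in bases from the start site, Slc2a1 holds CACGC at -61 and ACGTG at -36. P4ha2 holds 3 cores, at -107, -78 and -69, and a further ACGTG just after its start, outside the stretch shown. Adm holds CACGC at -90 and again at -54. A core is a match of letters and not a measured binding site, and its absence from the printed Vegfa window says only that these letters are not there. The other Vegfa window holds GCGTG at -218 and CACGT at -211.

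The log2 values of these arrays ran from -0.02 to 13.1, with array medians from 2.96 to 3.15, and arrays of a group correlated with r of 0.878 to 0.982 over the 15496 tested genes, which are not independent replicates. Marker lists matched the sorts in the main. The median of 12 macrophage markers lay at 9.52 to 10.68 on all ATM arrays, that of 13 dendritic markers at 8.03 to 8.76 on ATDC arrays, and that of 13 preadipocyte and fibroblast markers at 10.12 to 10.48 on PA arrays. ATDC arrays also carried macrophage markers at 7.81 to 9.46. Of the arrays, 3 stood apart. WL CD11c+ ATM replicate 1 carried brain transcripts (list median 7.90, against 2.53 to 3.22 on the other 23 arrays), HFD CD11c- ATM replicate 3 had the preadipocyte list at 8.92 (6.98 and 7.12 on the other 2 arrays), and HFD ATDC replicate 1 had the mast cell list at 6.17 (2.28 and 2.80). In pools of sorted cells, a change in the share of a contaminating cell type and a change of RNA per cell cannot be told apart.

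**Figure D1:**
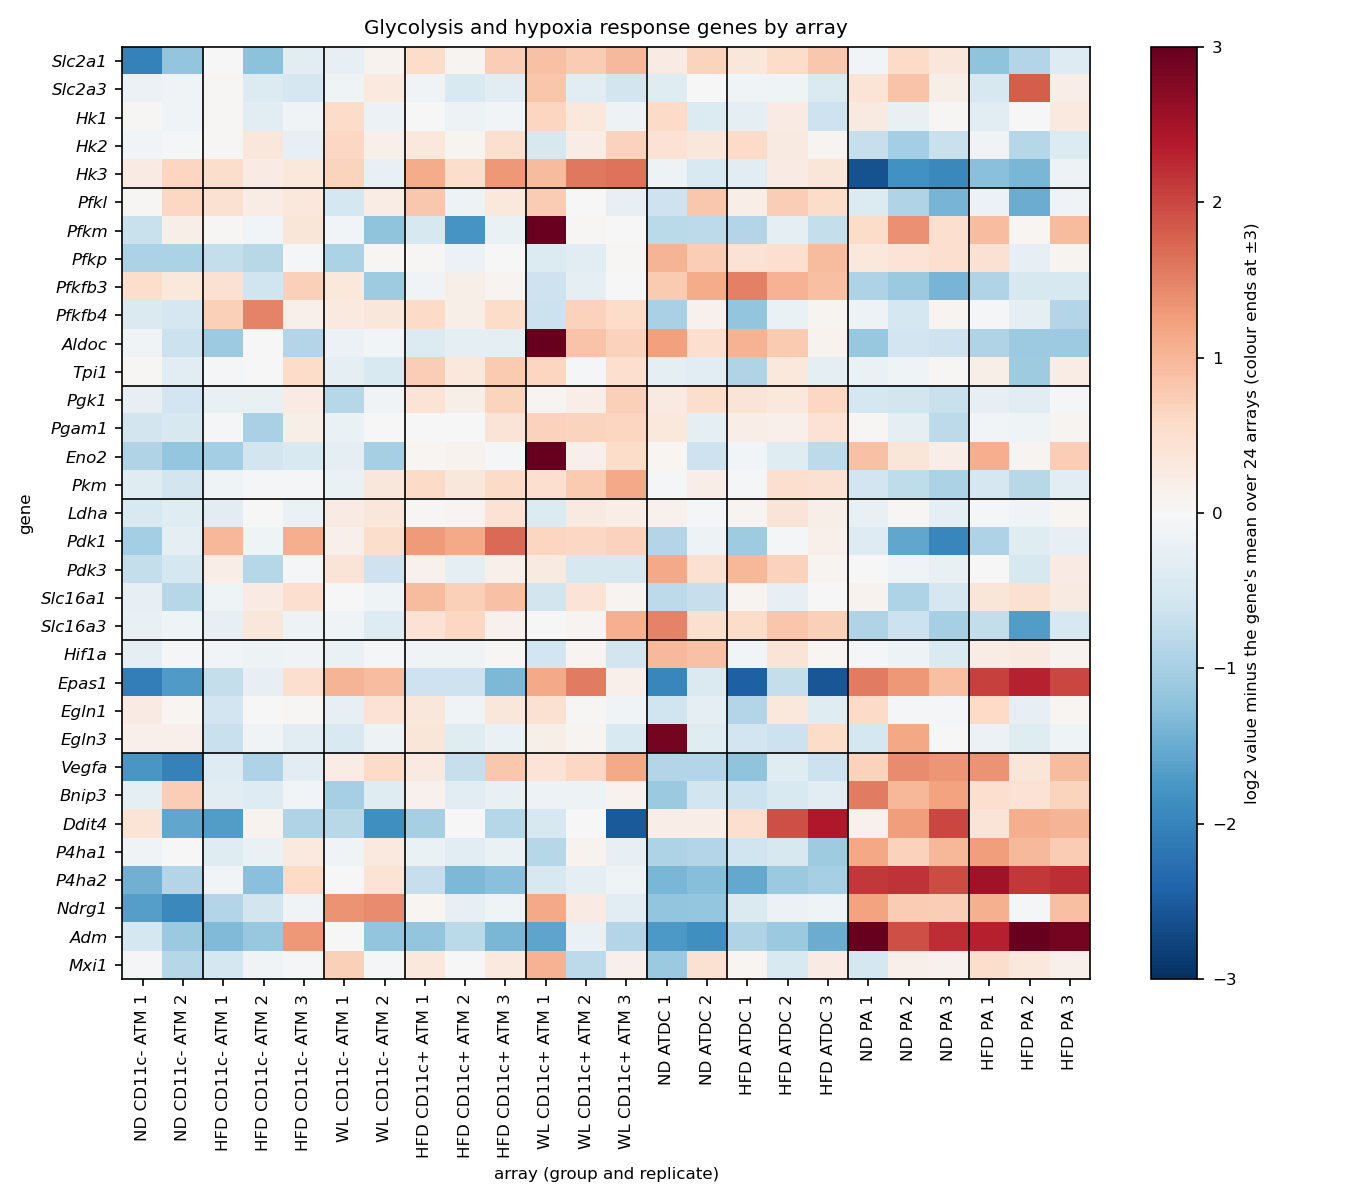
Log2 value of each of the 33 measured genes (vertical axis, ordered by role) on each of the 24 arrays (horizontal axis, ordered by group), shown as the difference from the gene's mean over all arrays; colour ends at 3 log2 units either way. The PA arrays stand out by high Adm, P4ha2 and Epas1 and low Hk3, and WL CD11c+ ATM replicate 1 by Aldoc, Eno2 and Pfkm.

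Genes of the HIF response outside glycolysis were among those called higher in the preadipocytes, 7 of them in ND mice and 4 in HFD mice. Against ND CD11c- ATM, ND PA had 9 members higher and 2 lower (limma with Benjamini-Hochberg adjustment over 15496 genes, threshold 0.05, used throughout), where 12.6% of all genes were called higher and 10.8% lower. Of the 12 HIF and HIF-controlled members, 7 were higher and 0 lower, with a median log2 difference of 1.36 against -0.01 over all genes. Against HFD CD11c+ ATM, HFD PA had 4 members higher and 6 lower, with 11.7% and 13.5% of all genes. The 4 were Epas1, P4ha1, P4ha2 and Adm, all of the HIF group. The 6 were Slc2a1, Hk2, Hk3, Pkm, Pdk1 and Slc16a3, all of the glucose and lactate group. Vegfa (0.76, adjusted p = 0.13), Bnip3 (0.68, 0.058) and Ndrg1 (0.75, 0.098), called higher in ND PA, did not pass in HFD PA. The median difference of the 21 members of glucose and lactate handling was -0.67 there, against -0.07 over all genes. The share of members called is to be read beside those percentages.

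The CD11c+ macrophages of obese mice were compared with the CD11c- macrophages of lean mice, a comparison in which sort and diet differ together. Here 6 members were higher and 0 lower, where 2.48% of all genes were called higher. They were Slc2a1, Pkm, Pdk1 and Slc16a1 of glucose and lactate handling, and Vegfa and Ndrg1 of the HIF-controlled genes. Estimates lay above 0 for 23 of the 33 members, with a median of 0.58, against 52.7% and 0.03 for all genes. Centring each array on its own median shifted the all-gene median by 0.12, to 0.15, and changed the sign of 3 members without ending any of the 6 calls. No call outlasted every removal of an array: 2 members passed without ND CD11c- ATM replicate 1, 2 without ND CD11c- ATM replicate 2 and 3 without HFD CD11c+ ATM replicate 3. Within HFD mice, CD11c+ against CD11c- ATM gave 0 members, but that comparison called 0.00645% of all genes, which is 1 gene. Cell cycle genes differed between the same groups, with 10 of 14 higher in HFD CD11c+ ATM than in ND CD11c- ATM, and their part in the result was not tested.

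Weight loss was set against both diets in the CD11c- macrophages. WL against ND CD11c- ATM gave 5 members higher (Slc2a1, Epas1, Vegfa, P4ha2 and Ndrg1) and 0 lower, where 3.23% of all genes were called higher. Of the 8 HIF-controlled members outside glycolysis 3 were called higher, and Bnip3 had an estimate of -0.91 (adjusted p = 0.094). Vegfa and Ndrg1 passed in all 4 leave-outs. Without ND CD11c- ATM replicate 1 these 2 were the members higher and Bnip3 passed as lower (-1.42, adjusted p = 0.031), and without WL CD11c- ATM replicate 2 Epas1, Vegfa and Ndrg1 passed. Mast cell, preadipocyte and endothelial markers were all higher on both WL CD11c- arrays than on both ND CD11c- arrays, with the values given below beside Epas1 and Ndrg1, and their part in these results was not tested. Against HFD CD11c- ATM, Ndrg1 was the 1 member that was higher (1.17% of all genes were). WL against HFD CD11c+ ATM gave 0 members (1.33% of all genes). There, 6 of 33 members had an unadjusted p under 0.05, against 20.1% of all genes. Without WL CD11c+ ATM replicate 2, Aldoc passed (2.78, adjusted p = 0.042), and without replicate 3 Aldoc (2.86), Pfkm (2.31) and Epas1 (2.21) passed. In both settings replicate 1 with its brain transcripts weighs more. That array was the highest of its group for Aldoc and Pfkm but not for Epas1, which was 7.30 there, 7.71 on replicate 2 and 6.31 on replicate 3. WL CD11c+ against WL CD11c- ATM gave 0 members as well (1.34% of all genes), with 10 members at an unadjusted p under 0.05 against 14.7% of all genes. Without WL CD11c+ ATM replicate 1, Ndrg1 passed there (-1.43, adjusted p = 0.030), without replicate 2 Eno2 did (2.40), and without WL CD11c- ATM replicate 2 Pgk1 did (1.19). The difference between the WL effects in CD11c+ and CD11c- ATM was called for 0 members and for 0.161% of all genes.

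The dendritic cells of lean mice differed from lean CD11c- macrophages in single genes of several roles. ND ATDC against ND CD11c- ATM gave 4 members higher (Slc2a1, Pfkp, Pdk3 and Hif1a, with 3.67% of all genes) and 1 lower (Bnip3, with 4.6% of all genes). In each of 3 settings, without ND CD11c- ATM replicate 1, ND CD11c- ATM replicate 2 or ND ATDC replicate 1, 3 members passed. HFD ATDC against HFD CD11c+ ATM gave 1 member lower, Pdk1, where 2.44% of all genes were lower. That count was 0 without HFD CD11c+ ATM replicate 1 or 3, 2 without replicate 2 and 3 without HFD ATDC replicate 2, and without HFD ATDC replicate 1 Ddit4 passed as higher in place of Pdk1. Cell cycle genes were higher in ND ATDC too (9 of 14), and the NK cell list was at 6.96 and 7.19 in ND ATDC against 3.35 and 3.90 in ND CD11c- ATM. The part of these in the result was not tested.

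Diet alone gave 0 member calls within any sort in the main fit, and Ndrg1 passed in CD11c- ATM in other settings given below. HFD against ND called 0.613% of all genes in CD11c- ATM, 0.258% in ATDC and 2.59% in PA, and none of the 33 members in limma at an adjusted p under 0.05. At an unadjusted p under 0.05 there were 8 members in CD11c- ATM (8.60% of all genes), 4 in ATDC (8.62%) and 4 in PA (11.6%). All 8 in CD11c- ATM were estimated higher in HFD (Slc2a1, Pfkfb4, Pdk1, Slc16a1, Epas1, Vegfa, P4ha2 and Ndrg1). Without HFD CD11c- ATM replicate 2, Slc2a1 (1.44) and P4ha2 (1.41) passed. In that setting replicate 3, with its preadipocyte transcripts, weighs more. The preadipocyte list lay at 6.98 to 8.92 in HFD and at 5.03 to 6.02 in ND CD11c- ATM. The part of these cells in the estimates was not tested. Without ND ATDC replicate 2, Egln3 passed as lower in HFD ATDC (-3.09), which rested on the 1 array of ND ATDC left. The difference between the diet effects was called for 0 members in ATDC against CD11c- ATM (0.0581% of all genes). It was called for 0 in PA against CD11c- ATM (0.277% of all genes). The comparisons against ND CD11c- ATM share its 2 arrays, so rises of a member in several of them are not separate evidence.

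**Figure D2:**
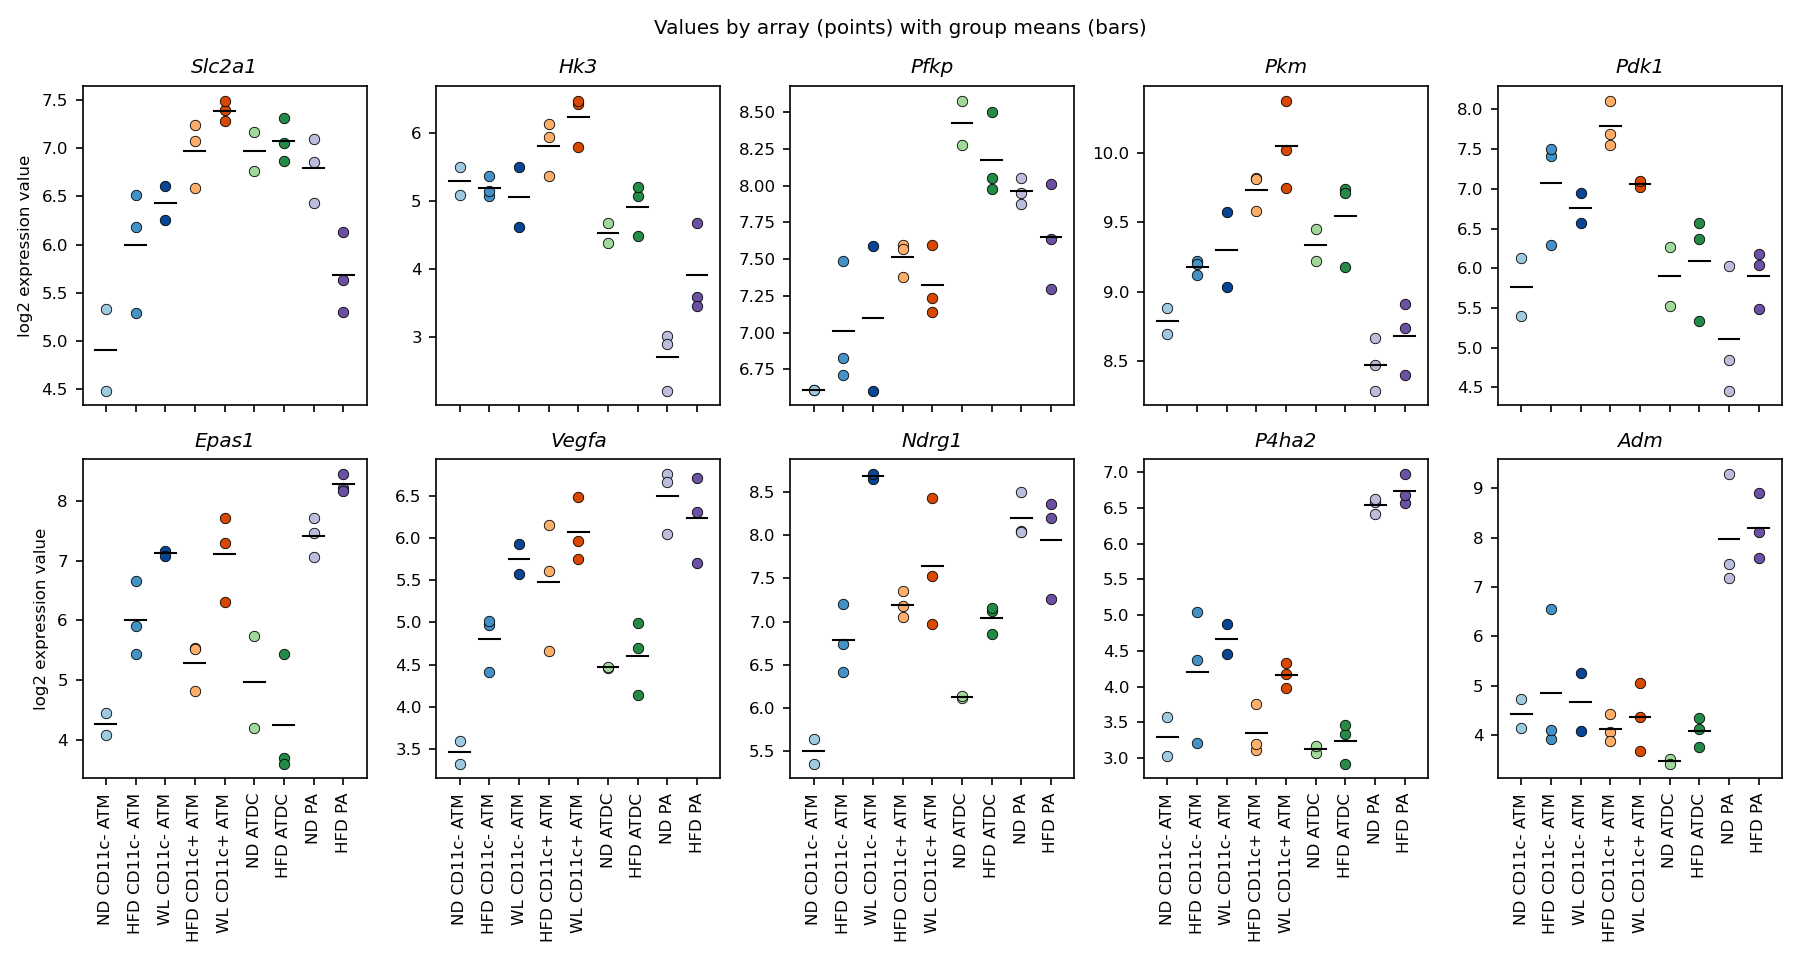
Log2 value of 10 members on each array (points), by group, with the group mean as a bar; axes differ between panels and do not start at 0. Slc2a1 is lowest in ND CD11c- ATM, P4ha2 and Adm are highest on the 6 PA arrays, and Ndrg1 is highest in WL CD11c- ATM.

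Slc2a1 encodes Glut1, the glucose transporter that most cells share. It stood at 4.48 and 5.33 in ND CD11c- ATM, at 6.51, 5.29 and 6.18 in HFD CD11c- ATM and at 6.26 and 6.61 in WL CD11c- ATM. The CD11c+ ATM values were 7.07, 6.59 and 7.24 in HFD and 7.40, 7.28 and 7.50 in WL mice. The lean CD11c- macrophages were thus lowest, with HFD CD11c- ATM replicate 2 and HFD PA replicate 1 between their 2 values, and the WL CD11c+ arrays were 3 of the 4 highest, with HFD ATDC replicate 3 among them. ATDC were high in both diets, at 6.77 and 7.17 in ND and 6.87, 7.06 and 7.32 in HFD mice. PA stood at 6.43, 7.10 and 6.86 in ND mice and at 5.30, 5.63 and 6.13 in HFD mice, with no overlap between the diets. Against ND CD11c- ATM, Slc2a1 was higher by 2.06 ± 0.38 (SE) in ND ATDC (adjusted p = 0.0014), by 1.89 ± 0.35 in ND PA (0.00033), by 2.06 ± 0.35 in HFD CD11c+ ATM (0.0023) and by 1.53 ± 0.38 in WL CD11c- ATM (0.020), all from the limma fit. The HFD CD11c+ ATM call ended without ND CD11c- ATM replicate 1 (1.64), and the WL call without that array (1.10) or without WL CD11c- ATM replicate 2 (1.35), and also with array weights (adjusted p = 0.073) or on the arrays compared alone (0.16). HFD PA was lower than HFD CD11c+ ATM (-1.28 ± 0.31, adjusted p = 0.0038), a macrophage sort other than that of the lean comparison, and the HFD PA arrays overlapped with HFD CD11c- ATM.

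Diet and cell type met in Slc2a1. In PA the HFD minus ND difference was -1.11 ± 0.31 (adjusted p = 0.066) and in CD11c- ATM 1.09 ± 0.35 (0.23). The difference between these effects was -2.19 ± 0.47 with a 95% interval from -3.17 to -1.22 and an adjusted p of 0.053, just short of the threshold. It passed without ND PA replicate 1 (-2.38), HFD CD11c- ATM replicate 2 (-2.55) or HFD PA replicate 3 (-2.42). Without ND PA replicate 1 the fall in PA passed too (-1.29, adjusted p = 0.045). The macrophage list differed between the PA arrays of the diets, at 5.56, 4.83 and 4.19 on the ND arrays and 6.67, 5.94 and 8.10 on the HFD arrays, and their part was not tested. A second Slc2a1 probe row, near the array median at 1.96 to 3.94, moved less (0.65 for HFD CD11c+ ATM against ND CD11c- ATM, 0.18 for ND ATDC and 0.41 for ND PA against ND CD11c- ATM, -0.46 for HFD against ND PA). With the mean of both rows, those first 3 differences were 1.36, 1.12 and 1.15 and stayed past the threshold.

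Among the hexokinases, which trap glucose as glucose 6-phosphate, Hk3 followed the myeloid cells. It stood at 5.08 and 5.49 in ND, 5.36, 5.07 and 5.14 in HFD and 5.49 and 4.62 in WL CD11c- ATM. Values were 5.93, 5.36 and 6.13 in HFD CD11c+ ATM, 5.78, 6.41 and 6.47 in WL CD11c+ ATM, 4.67 and 4.38 in ND ATDC and 4.48, 5.07 and 5.19 in HFD ATDC. In ND PA it was 2.21, 3.01 and 2.90, with no array above its own median, and in HFD PA 3.58, 3.46 and 4.68. Hk3 was lower in ND PA than in ND CD11c- ATM by at least 2.24 (the distance to the median of the dim arrays, limma estimate -2.58 ± 0.38, adjusted p = 2.5e-05). HFD PA was below HFD CD11c+ ATM (-1.90 ± 0.34, adjusted p = 0.00021). Within PA the HFD arrays lay above the ND arrays (1.20 ± 0.34, adjusted p = 0.066), and the highest of them, replicate 3, was also the HFD PA array with the most macrophage signal. Without HFD PA replicate 2 the diet difference of Hk3 in PA was 1.42 (adjusted p = 0.046).

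The other members of this step varied less. Hk2, the insulin- and HIF-responsive hexokinase, was 4.96, 4.71 and 5.11 in HFD CD11c+ ATM and 4.53, 3.77 and 4.22 in HFD PA. The difference of -0.75 ± 0.27 just passed (adjusted p = 0.047) and was lost in 5 of 6 leave-outs, without HFD CD11c+ ATM replicates 1 (-0.74), 2 (-0.86) or 3 (-0.66) and without HFD PA replicates 2 (-0.55) or 3 (-0.78), and in 4 further settings, the replicate block among them (adjusted p = 0.056). Hk1, the housekeeping form, had the narrowest range of all 33 members, with group means from 4.76 to 5.25. Slc2a3, which encodes the high-affinity transporter Glut3, lay near the array median in most groups (group means 2.86 to 3.66), so little can be read from its row.

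Pfkp, the platelet form of phosphofructokinase, which commits sugar to glycolysis, was lowest in the lean macrophages. It was 6.61 and 6.61 in ND, 6.83, 6.71 and 7.49 in HFD and 6.61 and 7.59 in WL CD11c- ATM. CD11c+ ATM had 7.59, 7.38 and 7.57 in HFD and 7.14, 7.23 and 7.59 in WL mice. The ATDC arrays held 8.58 and 8.28 in ND and 7.98, 8.05 and 8.50 in HFD mice, and PA 7.88, 7.95 and 8.05 in ND and 8.01, 7.30 and 7.64 in HFD mice. No ND ATDC or ND PA array overlapped with ND CD11c- ATM. The rise was 1.82 ± 0.32 in ND ATDC (adjusted p = 0.00096) and 1.35 ± 0.29 in ND PA (0.0017, limma), and both passed in every leave-out.

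Pfkfb3 makes the sugar bisphosphate that switches phosphofructokinase on. It was 5.84 and 5.61 in ND, 5.75, 4.70 and 6.02 in HFD and 5.62 and 4.23 in WL CD11c- ATM, and 5.20, 5.47 and 5.37 in HFD and 4.68, 5.03 and 5.29 in WL CD11c+ ATM. ATDC were high (6.09 and 6.41 in ND, 6.82, 6.35 and 6.21 in HFD), and PA low (4.37, 4.20 and 3.90 in ND, 4.39, 4.83 and 4.82 in HFD). All 5 ATDC arrays lay above every other array. Pfkfb3 was lower in ND PA than in ND CD11c- ATM (-1.57 ± 0.37, adjusted p = 0.0036), and the estimate for HFD ATDC over HFD CD11c+ ATM was 1.11 ± 0.33 (0.070).

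The remaining upper glycolysis members gave no call. Pfkfb4 had group means from 4.11 to 5.35, Pfkl, the liver form of phosphofructokinase, from 3.50 to 4.90, and the isomerase Tpi1 from 7.95 to 8.92. Pfkm, the muscle form, and Aldoc, the brain form of aldolase, were pulled by 1 array. Aldoc stood at 8.01 on WL CD11c+ ATM replicate 1 and 4.65 and 4.49 on the other 2 arrays of that group, against 3.39, 3.50 and 3.52 in HFD CD11c+ ATM. Elsewhere it was 3.70 and 3.16 in ND, 2.71, 3.78 and 2.92 in HFD and 3.63 and 3.71 in WL CD11c- ATM, 2.67, 3.21 and 3.19 in ND PA and 2.89, 2.70 and 2.71 in HFD PA. The ATDC values were 5.03 and 4.31 in ND and 4.83, 4.58 and 3.90 in HFD mice, above the PA and most macrophage arrays. The WL minus HFD difference of Aldoc in CD11c+ ATM was 2.25 ± 0.59 (adjusted p = 0.064) with replicate 1 and 1.10 ± 0.32 (0.12) without it. For Pfkm, with 6.65 on replicate 1 and 3.71 and 3.70 on the others, the difference fell from 1.82 ± 0.59 to 0.84 ± 0.43. The brain list moved with these values on replicate 1, and its part in the result with that array was not tested.

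Lower glycolysis, the steps that yield ATP, was estimated higher in CD11c+ macrophages. On the rows used, all 4 measured members (Pgk1, Pgam1, Eno2 and Pkm) had estimates above 0 in HFD CD11c+ ATM over ND CD11c- ATM, in HFD CD11c+ over HFD CD11c- ATM and in WL CD11c+ over WL CD11c- ATM. On these rows the groups did not overlap for any of the 4 in the first and the last of these (41.5% and 24.3% of all genes did not overlap there). A second Pgam1 row differed in part, as given below. Pkm, which encodes the pyruvate kinase of most adult tissues outside liver, was 8.88 and 8.70 in ND, 9.12, 9.22 and 9.20 in HFD and 9.03 and 9.57 in WL CD11c- ATM. It reached 9.82, 9.58 and 9.81 in HFD CD11c+ ATM and 9.75, 10.02 and 10.38 in WL CD11c+ ATM, with 9.22 and 9.45 in ND ATDC and 9.18, 9.74 and 9.71 in HFD ATDC. PA were lowest, at 8.67, 8.47 and 8.29 in ND and 8.74, 8.40 and 8.91 in HFD mice. Pkm was 0.95 ± 0.25 higher in HFD CD11c+ ATM than in ND CD11c- ATM (limma, adjusted p = 0.035). That call ended without ND CD11c- ATM replicate 1 (1.04) or 2 (0.85) and without HFD CD11c+ ATM replicate 1 (0.90) or 3 (0.91), so the size moved little. With the replicate block it was 0.89 (adjusted p = 0.066). HFD PA lay below HFD CD11c+ ATM (-1.05 ± 0.22, adjusted p = 0.0010, kept in each of 6 leave-outs).

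Pgk1 and Pgam1, a kinase and a mutase of this stretch, moved with Pkm on the rows used but did not pass in the main fit. For WL CD11c+ over WL CD11c- ATM the estimates were 0.82 ± 0.26 for Pgk1 (limma, adjusted p = 0.12), 0.77 ± 0.29 for Pgam1 (0.21) and 0.74 ± 0.25 for Pkm (0.14). Pgk1 had group means from 7.95 in ND PA to 8.97 in HFD ATDC, and Pgam1 from 6.90 in ND CD11c- ATM to 8.09 in WL CD11c+ ATM. Pgk1 passed in that comparison without WL CD11c- ATM replicate 2 (1.19). A second Pgam1 row, at 2.38 to 5.37, gave 1.73 for WL CD11c+ over WL CD11c- ATM, without overlap. With the mean of both rows Pgam1 passed there (1.25, limma, adjusted p = 0.037). The second row gave 0.43 for HFD CD11c+ over ND CD11c- ATM, with overlap, and -0.05 for HFD CD11c+ over HFD CD11c- ATM. Eno2, the neuronal form of enolase, stood at 6.90 on WL CD11c+ ATM replicate 1, the array with brain transcripts, and 4.06 and 4.45 on the other 2. It was 3.97, 4.01 and 3.86 in HFD CD11c+ ATM, 3.00 and 2.74 in ND, 2.89, 3.36 and 3.46 in HFD and 3.64 and 2.91 in WL CD11c- ATM. In ATDC it was 3.97 and 3.29 (ND) and 3.84, 3.56 and 3.13 (HFD), and in PA 4.78, 4.27 and 4.12 (ND) and 5.01, 4.00 and 4.66 (HFD). The WL CD11c+ over WL CD11c- estimate of Eno2 fell from 1.86 ± 0.55 to 0.98 ± 0.36 without replicate 1, and reached 2.40 (adjusted p = 0.036) without replicate 2. ND PA lay above ND CD11c- ATM by at least 1.28, since no ND macrophage array was above its median, and this missed the threshold (1.52 ± 0.55, adjusted p = 0.053). It passed with the replicate block (1.61, adjusted p = 0.024) and in 5 other settings (adjusted p from 0.0018 to 0.045), those without the 3 arrays that stood apart and on the arrays compared alone among them.

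Pdk1 encodes a kinase that holds pyruvate out of the mitochondria by switching off pyruvate dehydrogenase, and it was highest in HFD CD11c+ ATM. It was 5.40 and 6.12 in ND, 7.42, 6.29 and 7.50 in HFD and 6.57 and 6.95 in WL CD11c- ATM. In CD11c+ ATM it was 7.69, 7.56 and 8.11 in HFD and 7.07, 7.03 and 7.10 in WL mice. ATDC had 5.53 and 6.27 in ND and 5.34, 6.37 and 6.57 in HFD mice, and PA 6.02, 4.85 and 4.46 in ND and 5.48, 6.05 and 6.18 in HFD mice. The 3 HFD CD11c+ arrays lay above all other 21 arrays. The difference was 2.02 ± 0.45 over ND CD11c- ATM (limma, adjusted p = 0.015), and the call ended without ND CD11c- ATM replicate 1 (1.66) or HFD CD11c+ ATM replicate 3 (1.86). HFD PA lay below HFD CD11c+ ATM (-1.88 ± 0.40, adjusted p = 0.0013), and so did HFD ATDC (-1.69 ± 0.40, adjusted p = 0.018). The ATDC call ended without HFD CD11c+ ATM replicate 1 (-1.74) or 3 (-1.53) and without HFD ATDC replicate 1 (-1.32, adjusted p = 0.15), the array with mast cell markers, and on the arrays compared alone (adjusted p = 0.053). The estimate for WL minus HFD in CD11c+ ATM was -0.72 ± 0.40 (adjusted p = 0.32), with no overlap of the arrays.

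The second Pdk1 row, at 3.33 to 5.66, did not show the rise over lean macrophages in the same size. It gave 0.61 for HFD CD11c+ ATM over ND CD11c- ATM, where its arrays overlapped, and -0.04 for HFD over ND CD11c- ATM (1.30 on the row used). For HFD CD11c+ over ND CD11c- ATM the mean of both rows gave 1.32 (limma, adjusted p = 0.028). For HFD PA and HFD ATDC against HFD CD11c+ ATM that row gave -1.50 and -1.04, without overlap. Pdk3, a further kinase of the family, was 7.14 and 6.46 in ND ATDC and 5.27 and 5.48 in ND CD11c- ATM, and the other group means lay from 5.76 to 6.60. The ND ATDC difference of 1.43 ± 0.40 (adjusted p = 0.031) ended without ND CD11c- ATM replicate 1 (1.32) or 2 (1.53) or ND ATDC replicate 1 (1.08), and on the arrays compared alone (adjusted p = 0.093).

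Lactate leaves and enters cells through the monocarboxylate transporters. Slc16a1 (MCT1) was 3.51 and 2.89 in ND, 3.64, 3.99 and 4.27 in HFD and 3.74 and 3.62 in WL CD11c- ATM, and 4.71, 4.47 and 4.63 in HFD and 3.20, 4.18 and 3.84 in WL CD11c+ ATM. The HFD CD11c+ arrays were the highest of all 24. The rise over ND CD11c- ATM was 1.41 ± 0.30 (limma, adjusted p = 0.012), and the call ended without ND CD11c- ATM replicate 2 (1.10) or HFD CD11c+ ATM replicate 3 (1.39). WL CD11c+ ATM lay below HFD CD11c+ ATM without overlap (-0.86 ± 0.27, adjusted p = 0.099, and -0.59 ± 0.27 without replicate 1). Slc16a1 also passed in PA of HFD against ND mice without ND PA replicate 1 (1.07). Slc16a3 (MCT4), which favours export, was 4.32, 4.50 and 4.01 in HFD CD11c+ ATM and 3.15, 2.21 and 3.41 in HFD PA, a difference of -1.36 ± 0.32 (adjusted p = 0.0033) kept in each of 6 leave-outs. Its highest group mean was that of ND ATDC (4.87), with arrays at 5.37 and 4.37, and HFD ATDC stood at 4.42, 4.73 and 4.60. The Ldha row, for the A subunit of lactate dehydrogenase, lay at 2.45 to 3.33, about the array medians, on every array, so this row gives no usable level for a gene that most cells express.

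**Figure D3:**
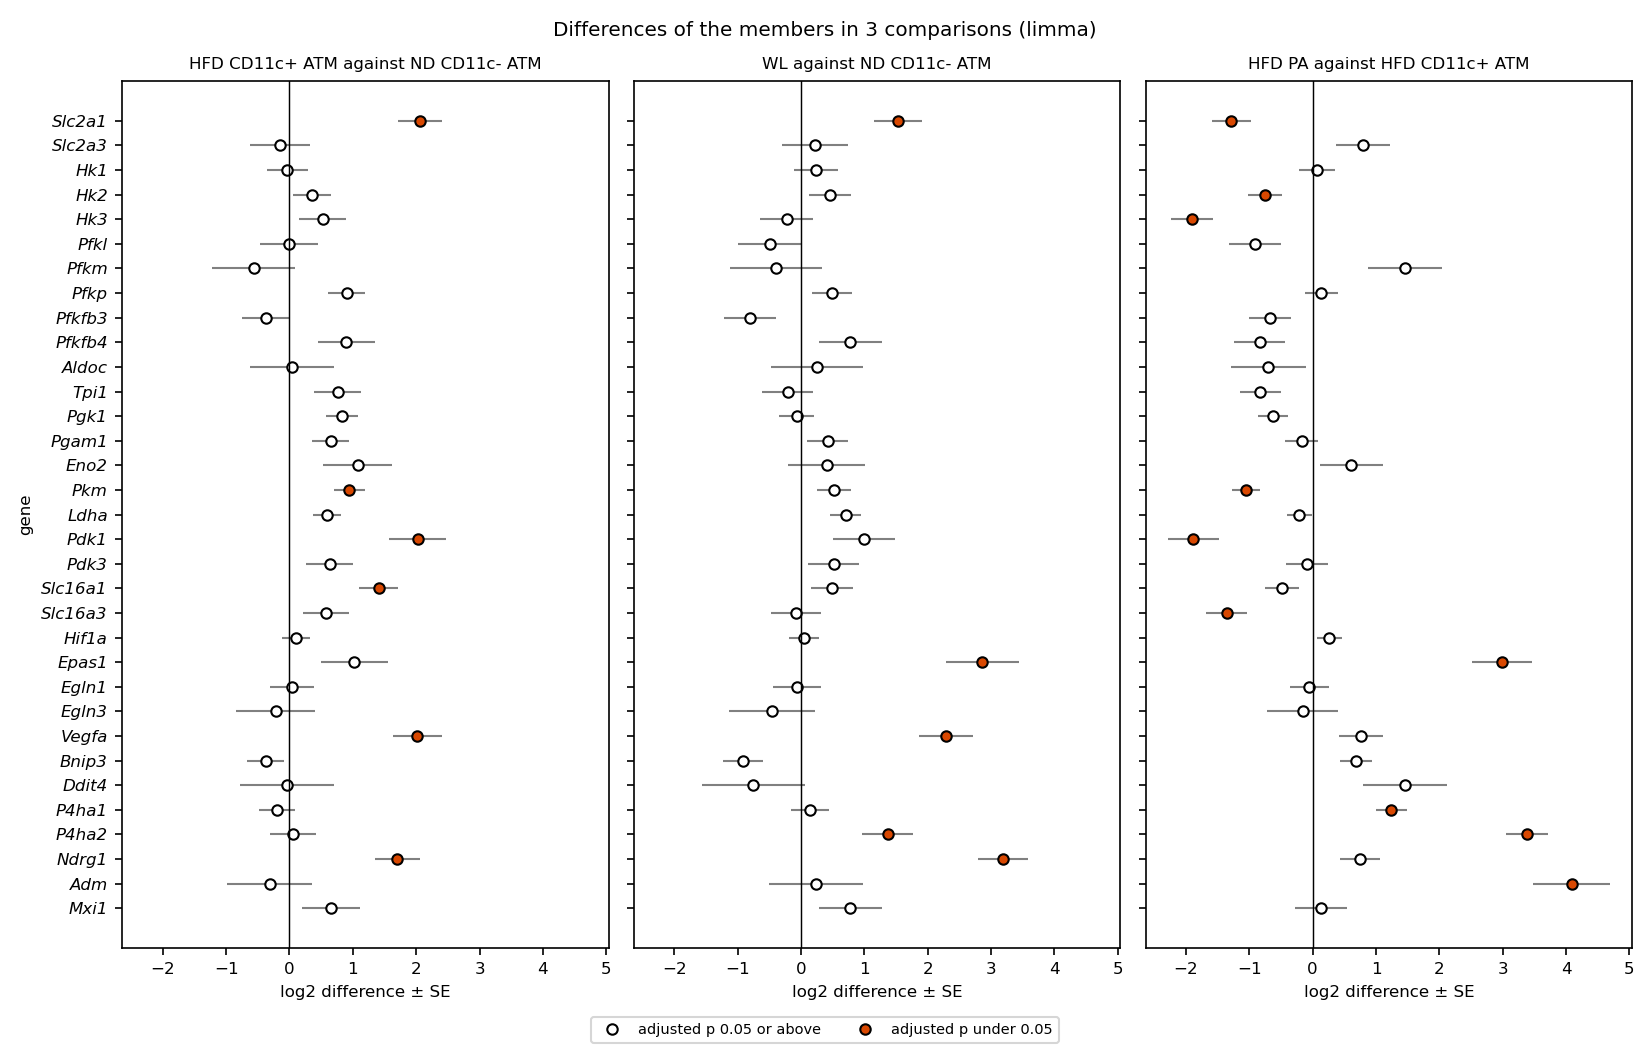
Log2 difference of each of the 33 members (points) with its SE (bars) in 3 comparisons from the limma fit; filled points had an adjusted p under 0.05. Slc2a1, Pdk1 and Pkm lie to the right of 0 for HFD CD11c+ ATM over ND CD11c- ATM and to the left for HFD PA over HFD CD11c+ ATM, and Epas1 and P4ha2 lie far right for HFD PA.

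The 2 HIF alpha subunits had different patterns. Hif1a, the subunit linked to inflammatory macrophages, was nearly level outside ND ATDC on the row used. It was 7.42 and 7.70 in ND, 7.64, 7.57 and 7.62 in HFD and 7.53 and 7.68 in WL CD11c- ATM, and 7.62, 7.62 and 7.76 in HFD and 7.15, 7.80 and 7.18 in WL CD11c+ ATM. PA had 7.70, 7.57 and 7.30 in ND and 7.95, 7.99 and 7.84 in HFD mice. ND ATDC had 8.70 and 8.61, above all other 22 arrays, and HFD ATDC 7.65, 8.11 and 7.78. The ND ATDC rise over ND CD11c- ATM was 1.09 ± 0.24 (limma, adjusted p = 0.0057) and ended without ND CD11c- ATM replicate 1 (0.96, adjusted p = 0.077) or on the arrays compared alone (0.11). The diet difference in CD11c- ATM was 0.05 with a 95% interval from -0.41 to 0.51, and in ATDC -0.81 ± 0.22 (adjusted p = 0.16). A second Hif1a row, at 3.84 to 5.63, gave 0.97 for ND ATDC over ND CD11c- ATM, without overlap. On that row WL CD11c+ ATM lay below HFD CD11c+ ATM (-0.62) and WL CD11c- ATM (-0.67), both without overlap. On the row used these 2 differences were -0.29 and -0.22.

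Epas1 encodes HIF-2alpha, first described in endothelium and made in many stromal cells. It was 4.08 and 4.45 in ND, 5.44, 5.91 and 6.65 in HFD and 7.17 and 7.09 in WL CD11c- ATM, 3 ranges that did not overlap. CD11c+ ATM had 5.54, 5.53 and 4.81 in HFD and 7.30, 7.71 and 6.31 in WL mice. ATDC were low, at 4.20 and 5.73 in ND and 3.70, 5.44 and 3.60 in HFD mice, and PA high, at 7.71, 7.47 and 7.06 in ND and 8.22, 8.46 and 8.17 in HFD mice. Epas1 was higher by 3.15 ± 0.52 in ND PA than in ND CD11c- ATM (limma, adjusted p = 0.00011) and by 2.99 ± 0.47 in HFD PA than in HFD CD11c+ ATM (6e-05). In WL over ND CD11c- ATM it was 2.86 ± 0.57 higher (adjusted p = 0.0053), which ended without ND CD11c- ATM replicate 1 (2.68, adjusted p = 0.054). The WL over HFD estimate in CD11c+ ATM was 1.81 ± 0.47 (adjusted p = 0.060), 1.72 ± 0.53 without replicate 1, and 2.21 (0.020) without replicate 3. Markers of stromal cells moved with Epas1 here in part. The preadipocyte list was 6.02 and 5.03 in ND, 7.12, 6.98 and 8.92 in HFD and 8.65 and 7.84 in WL CD11c- ATM. The endothelial list was 4.07 and 3.83 in ND, 3.80 to 4.27 in HFD and 5.36 and 5.74 in WL CD11c- ATM. In CD11c+ ATM the preadipocyte list lay at 5.68 to 6.77 in HFD and 7.14 to 8.21 in WL mice. The endothelial list there lay at 3.95 to 4.34 in HFD and 4.37 to 4.59 in WL mice. The part of these cells in the Epas1 results was not tested.

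The prolyl hydroxylases gave no call. Egln1, the main oxygen sensor of the family, had group means from 6.28 to 6.92. Egln3, itself a HIF target, was above the array median on 2 of 24 arrays and reached 4.95 on ND ATDC replicate 1 against 1.70 on replicate 2.

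P4ha2 and P4ha1 encode subunits of collagen prolyl 4-hydroxylase, which collagen-making cells need. P4ha2 was 6.58, 6.63 and 6.42 in ND PA and 6.98, 6.57 and 6.67 in HFD PA. All 18 other arrays lay lower, with 3.03 and 3.57 in ND, 4.38, 3.21 and 5.04 in HFD and 4.46 and 4.87 in WL CD11c- ATM. CD11c+ ATM had 3.76, 3.11 and 3.19 in HFD and 3.98, 4.18 and 4.33 in WL mice, and ATDC 3.08 and 3.17 in ND and 2.92, 3.33 and 3.46 in HFD mice. The PA rise was 3.24 ± 0.37 over ND CD11c- ATM (limma, adjusted p = 1.3e-06) and 3.38 ± 0.33 over HFD CD11c+ ATM (4.7e-07). WL over ND CD11c- ATM gave 1.37 ± 0.40 (adjusted p = 0.048), a call that ended without ND CD11c- ATM replicate 1 (1.09) or 2 (1.64) and without WL CD11c- ATM replicate 1 (1.57) or 2 (1.16). It ended in 6 further settings too, with adjusted p from 0.056 to 0.16. HFD CD11c- ATM replicate 3, with the highest P4ha2 of any macrophage array, also had the highest preadipocyte list of any macrophage array, and the part of these cells was not tested. P4ha1 was 8.21, 7.73 and 8.04 in ND PA and 8.30, 8.03 and 7.82 in HFD PA, against 6.96 and 7.05 in ND CD11c- ATM and 6.85, 6.72 and 6.84 in HFD CD11c+ ATM. Its differences were 0.99 ± 0.28 (adjusted p = 0.012, ended without ND CD11c- ATM replicate 1, at 0.95, or 2, at 1.04) and 1.24 ± 0.25 (0.00070, kept in every leave-out).

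Adm encodes adrenomedullin, a vasodilator peptide, and had the widest range of group means of all members, 3.47 to 8.20. The PA arrays stood at 9.30, 7.18 and 7.47 in ND and 7.59, 8.91 and 8.11 in HFD mice, above all others. Macrophages had 4.73 and 4.14 in ND, 3.91, 4.10 and 6.56 in HFD and 5.25 and 4.07 in WL CD11c- ATM, and 4.06, 4.43 and 3.87 in HFD and 3.67, 5.05 and 4.38 in WL CD11c+ ATM. ATDC had 3.52 and 3.42 in ND and 4.35, 4.13 and 3.76 in HFD mice. The outlying 6.56 was HFD CD11c- ATM replicate 3, the array with preadipocyte transcripts. The PA rise was 3.55 ± 0.68 in ND mice (limma, adjusted p = 0.00047) and 4.09 ± 0.61 in HFD mice (3.2e-05).

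Vegfa encodes the growth factor that draws blood vessels into tissue. Lean macrophages were lowest, at 3.60 and 3.33 in ND CD11c- ATM, with 4.97, 4.42 and 5.01 in HFD and 5.58 and 5.93 in WL CD11c- ATM, again without overlap. CD11c+ ATM had 5.61, 4.66 and 6.15 in HFD and 5.76, 5.97 and 6.49 in WL mice, and ATDC 4.46 and 4.47 in ND and 4.14, 4.99 and 4.70 in HFD mice. PA had 6.05, 6.76 and 6.67 in ND and 6.71, 5.70 and 6.30 in HFD mice. Over ND CD11c- ATM, Vegfa was higher by 3.03 ± 0.39 in ND PA (limma, adjusted p = 5.5e-06), by 2.29 ± 0.43 in WL CD11c- ATM (0.0031) and by 2.02 ± 0.39 in HFD CD11c+ ATM (0.0059). The last call ended without ND CD11c- ATM replicate 2 (1.88, adjusted p = 0.078) or on the arrays compared alone (0.052), and the first and second were kept in every leave-out. On the WL CD11c- arrays the mast cell list was at 8.52 and 9.36 (2.27 and 2.85 on the ND CD11c- arrays), the preadipocyte list at 8.65 and 7.84 (6.02 and 5.03) and the endothelial list at 5.36 and 5.74 (4.07 and 3.83), and their part in the Vegfa rise was not tested. The estimate for HFD over ND CD11c- ATM was 1.34 ± 0.39 (adjusted p = 0.16).

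Ndrg1 is a stress gene induced by low oxygen in many cell types, and of the members it was the one called in WL against HFD CD11c- ATM. It was 5.64 and 5.35 in ND, 6.41, 6.73 and 7.20 in HFD and 8.65 and 8.71 in WL CD11c- ATM. CD11c+ ATM had 7.36, 7.05 and 7.18 in HFD and 8.43, 7.53 and 6.98 in WL mice, ATDC 6.11 and 6.14 in ND and 6.85, 7.13 and 7.16 in HFD mice, and PA 8.50, 8.05 and 8.04 in ND and 8.37, 7.26 and 8.21 in HFD mice. The WL CD11c- arrays were the highest of all 24. WL CD11c- ATM exceeded ND by 3.19 ± 0.39 (limma, adjusted p = 7.3e-05) and HFD CD11c- ATM by 1.90 ± 0.36 (0.0063), and both calls held with each array left out. Fitted on its own 5 arrays alone, the WL over HFD call ended (limma, adjusted p = 0.11). ND PA exceeded ND CD11c- ATM by 2.70 ± 0.36 (adjusted p = 7.8e-06), and HFD CD11c+ ATM did so by 1.70 ± 0.36 (0.010), a call ended without ND CD11c- ATM replicate 1 (1.85) or 2 (1.55). A second Ndrg1 row, at 3.10 to 7.91, gave 4.39 for WL over ND and 2.33 for WL over HFD CD11c- ATM, without overlap. Over ND CD11c- ATM, at 3.28 near the array median, it gave 2.06 in HFD CD11c- ATM and 2.08 in ND ATDC, also without overlap. With the mean of both rows these 2 differences passed (1.67 and 1.35, limma, adjusted p = 0.022 and 0.023). On the row used they were 1.29 and 0.63 and did not pass (0.13 and 0.42). The HFD over ND difference also passed with array weights (1.26, adjusted p = 0.039). The WL minus HFD effect was lower in CD11c+ than in CD11c- ATM by an estimated 1.45 (log2 difference -1.45), which did not pass.

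Mast cell transcripts moved with Ndrg1 in the WL macrophages. The median of 6 mast cell markers was 8.52 and 9.36 on the WL CD11c- arrays, 6.31, 6.15 and 5.27 on the WL CD11c+ arrays, 5.77, 2.32 and 4.43 in HFD CD11c- ATM and 2.27 and 2.85 in ND CD11c- ATM. In WL CD11c- ATM the tryptase gene Tpsb2 stood at 10.14 and 10.46. PA arrays had Ndrg1 at 7.26 to 8.50 with the mast cell list at 2.14 to 3.67. The part of mast cells in the WL rise was not tested.

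**Figure D4:**
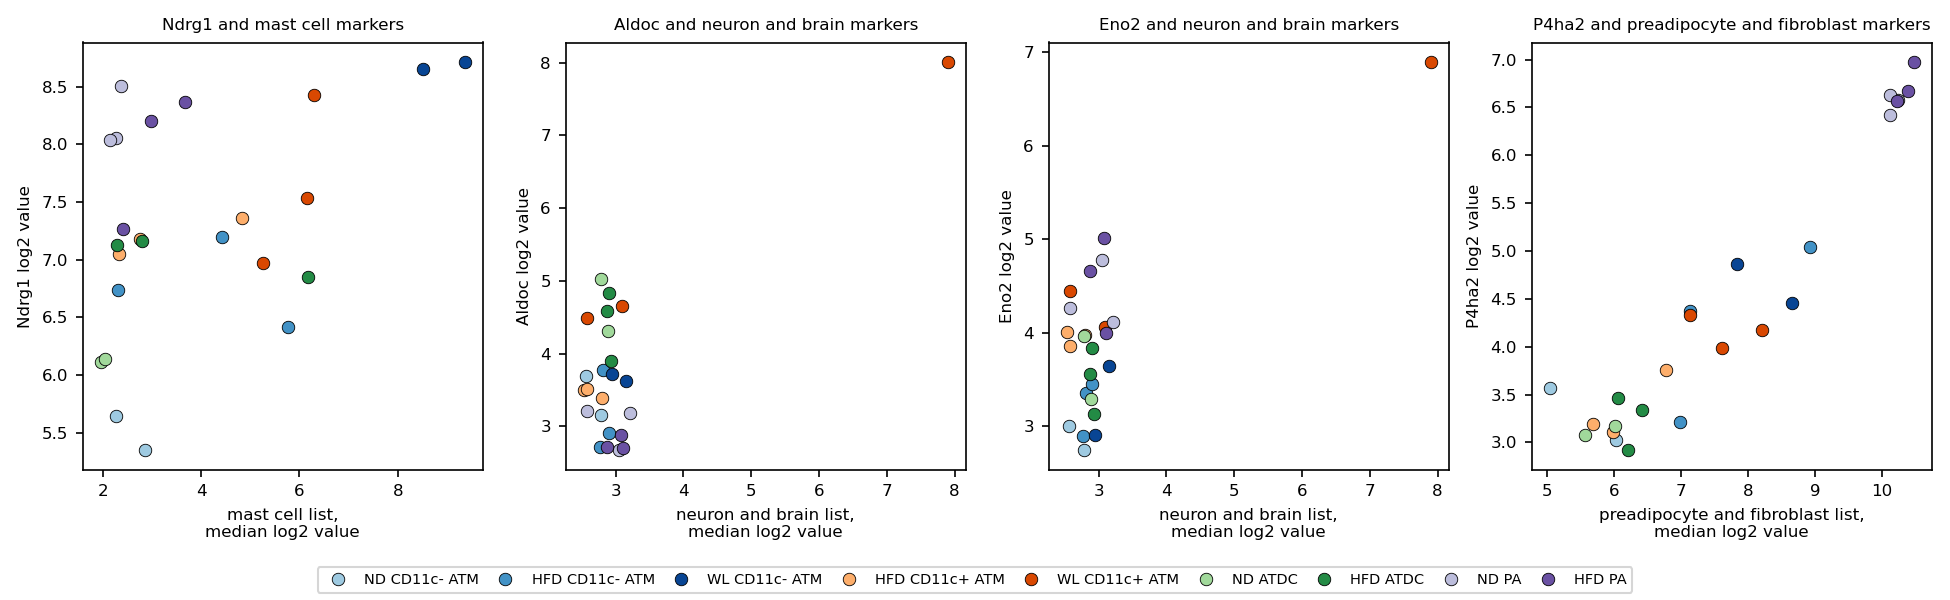
Log2 value of a member (vertical axis) against the median log2 value of a marker list (horizontal axis) on each of the 24 arrays, coloured by group. From left to right, Ndrg1 with mast cell markers, Aldoc and Eno2 with neuron and brain markers, where WL CD11c+ ATM replicate 1 lies alone at the upper right, and P4ha2 with preadipocyte and fibroblast markers, where the 6 PA arrays lie together at the upper right.

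The other HIF-controlled members behaved differently from these. Bnip3, which serves in the removal of mitochondria, was 5.18 and 6.19 in ND CD11c- ATM, 4.33 and 4.89 in ND ATDC and 7.01, 6.44 and 6.66 in ND PA. It was higher in ND PA than in ND CD11c- ATM (1.02 ± 0.29, limma, adjusted p = 0.012) and lower in ND ATDC (-1.07 ± 0.31, adjusted p = 0.036). Its 2 values in ND CD11c- ATM differed by about as much, and the PA call ended without ND CD11c- ATM replicate 1 (0.52) or ND PA replicate 1 (0.87), and the ATDC call without ND CD11c- ATM replicate 2 (-0.57) or ND ATDC replicate 1 (-0.79). On the arrays compared alone both ended (adjusted p = 0.087 and 0.27), and the ATDC call also with trended robust eBayes (0.051). Ddit4, an mTOR inhibitor that rises under stress, varied widely inside groups, with 4.51 and 2.54 in ND, 2.42, 4.19 and 3.19 in HFD and 3.27 and 2.26 in WL CD11c- ATM. It was 3.11, 4.10 and 3.23 in HFD and 3.62, 4.09 and 1.59 in WL CD11c+ ATM, 4.30 and 4.30 in ND and 4.61, 6.02 and 6.50 in HFD ATDC, and 4.23, 5.35 and 6.11 in ND and 4.50, 5.18 and 5.12 in HFD PA. HFD ATDC lay above HFD CD11c+ ATM without overlap, by 2.23 ± 0.66 (adjusted p = 0.066), and by 2.78 (0.047) without HFD ATDC replicate 1. Mxi1, a Max-binding repressor, had group means from 9.28 to 10.06 and no call.

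Further genes of the pathway were taken from lists drawn up for this purpose. Of 35 tested genes of the HIF pathway outside the members, 8 were higher and 4 lower in ND PA than in ND CD11c- ATM, and 7 higher and 6 lower in HFD PA than in HFD CD11c+ ATM, comparisons that called 12.6% and 10.8%, and 11.7% and 13.5%, of all genes. The largest were Plod2 (5.11 and 4.93), Tmem45a (4.92 and 4.12) and Lox (4.76 and 4.78), the first and last of which modify collagen, as the P4ha genes do. In WL over ND CD11c- ATM 2 of the 35 rose (Bhlhe40 by 3.43 and Plod2 by 3.34) and 3 fell. In HFD CD11c+ over ND CD11c- ATM 1 of them rose (Bhlhe40, by 1.89) and 1 fell (Tfrc, -2.24). These comparisons called 3.23% and 2.48% of all genes higher, and their shares called lower are not given here. Of 5 tested further glucose transporters, Slc2a6 was higher in ND ATDC than in ND CD11c- ATM by 3.37 ± 0.31 (limma, adjusted p = 8.9e-07) and in HFD ATDC than in HFD CD11c+ ATM by 1.31 ± 0.26 (0.0044). Of 23 further glycolytic and pyruvate genes, 0 passed in HFD CD11c+ over ND CD11c- ATM, and of 5 pentose phosphate genes 0 passed. In HFD PA against HFD CD11c+ ATM 2 of the 23 rose and 2 fell, no larger a share than of all genes, the largest being Ldhb, the other lactate dehydrogenase subunit (2.53), the lactate carrier Slc16a7 (-2.15) and Pdp1, the phosphatase that opposes the Pdk kinases (1.11). In ND PA against ND CD11c- ATM the first and last of these rose as well (Ldhb by 2.91 and Pdp1 by 2.55).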

How the data were processed

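Total RNA of sorted cells was amplified with a whole-transcript cDNA kit and read on 1 array per sample with a biotin label, per the labels' protocols. The deposited table holds log2 values that the authors made with RMA and oligo, per the submitters' processing notes, which also name limma. Versions, settings and genome build: not given in the sources used here. RMA makes the arrays' distributions alike, so a shift shared by all genes is removed. The number of arrays limits the precision, and p-values measure the spread between pools of mice.

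Titles gave the 9 groups. Rows with exactly 1 symbol named a gene (23521 of 41345 rows), and of several rows the one with the highest mean over 24 arrays was used. Genes entered the tests when 2 or more arrays exceeded their own array median. Differences were tested two-sided with lmFit and eBayes of limma 3.58.1 (R 4.3.3), in a single fit of all 24 arrays with 1 mean per group and 15 residual degrees of freedom. P-values were adjusted by Benjamini-Hochberg over 15496 genes for each comparison (13) and interaction (3), threshold 0.05, and the code was tested on simulated data. Where a group had 0 arrays above their medians, "at least" gives the distance from the brighter group to the higher of the median and the value itself. Full values are given for the 12 members with the widest range of group means. Other members that passed have at least the values of the groups that were called different. Of the further lists, up to 3 of the largest calls per list and comparison are given. The members and lists were chosen with earlier results of these data known. The brain list and the setting without the 3 arrays that stood apart were added after seeing the data. Alternatives tried were other filters, array weights, a replicate block, 2 rescalings, the mean of all rows, trended robust eBayes, only the arrays compared, and each array left out in turn. Deviations of same-numbered arrays of different groups correlated little in most pairs (87 pairs, r from -0.13 to 0.25, median 0.01, 4 pairs over 0.1). Many of these pairs join different diets and could not share mice. All 4 pairs over 0.1 joined sorts of HFD mice, the highest being CD11c+ and CD11c- ATM replicate 2 (0.25). The median can therefore not settle whether sorts within a diet shared pools. The main fit did not take the numbers as pairs, and the replicate block was the alternative that used them.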

Additional observations from a re-analysis of the deposited data

How the results depend on the processing

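No difference of a called member changed sign in any setting. Counts of members past the threshold moved as follows. With array weights, HFD against ND gave 1 in CD11c- ATM and 3 in PA, WL against ND CD11c- ATM 3, HFD ATDC against HFD CD11c+ ATM 4, HFD PA against HFD CD11c+ ATM 21 and the diet interaction in PA 1. With the mean of all rows, HFD against ND CD11c- ATM, WL CD11c+ against WL CD11c- ATM and the diet interaction in PA gave 1 each. With the replicate block, HFD against ND PA and WL against HFD CD11c+ ATM gave 1 each, and the other counts stayed within 1.5 times. The stricter filter gave 1 in WL against HFD CD11c+ ATM. Trended robust eBayes gave 1 there and 1 in the diet interaction in PA, as did quantile normalization in the latter. Fitting only the arrays compared gave 0 in WL against HFD CD11c- ATM, 3 in WL against ND CD11c- ATM, 2 in ND ATDC against ND CD11c- ATM and 17 in HFD PA against HFD CD11c+ ATM. Centring on array medians gave 2 in HFD ATDC against HFD CD11c+ ATM. Without the 3 arrays that stood apart that count was 0, and WL CD11c+ against WL CD11c- ATM gave 1. The cause of these moves was not tested, beyond the smaller number of arrays in the last settings.

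Leaving out each array in turn gave counts from 0 to 2 in HFD against ND CD11c- ATM and PA, 0 to 1 in ATDC, 0 to 3 in WL against HFD CD11c+ ATM, 0 to 1 in WL CD11c+ against WL CD11c- ATM, 0 to 3 in HFD ATDC against HFD CD11c+ ATM, 3 to 4 in WL against ND CD11c- ATM, 3 to 7 in ND ATDC against ND CD11c- ATM, 2 to 6 in HFD CD11c+ ATM against ND CD11c- ATM and 0 to 1 in the diet interaction in PA. With groups of 2 or 3 arrays, calls near the threshold rest on single arrays, and dim rows such as those of Ldha, Slc2a3 and Egln3 carry little signal over background.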

Other observations

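Genes of sugar storage and of the pentose phosphate branch gave few calls. Of 8 tested genes of glycogen metabolism, 2 rose in ND PA over ND CD11c- ATM (limma with Benjamini-Hochberg adjustment), the glycogen phosphorylase gene Pygl by 2.30 and Ugp2, which makes the sugar donor for glycogen, by 0.94, where 12.6% of all genes were called higher. In HFD CD11c+ ATM over ND CD11c- ATM, 1 of the 8 rose, where 2.48% of all genes were called higher. It was Gyg (1.35), which encodes the protein primer of glycogen. Of 5 tested pentose phosphate genes, 2 fell in HFD PA against HFD CD11c+ ATM, Taldo1 (-1.27) and Pgd (-1.12), where 13.5% of all genes were called lower. Bpgm, which makes bisphosphoglycerate, rose by 2.21 in WL CD11c+ over WL CD11c- ATM (adjusted p = 0.011), a comparison in which no member passed.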
